A study of Mus musculus with 18 samples.

Results

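The 9 measured rows examined here belong to the Hoxb cluster of the mouse: the coding genes Hoxb2, Hoxb3, Hoxb4, Hoxb5, Hoxb6, Hoxb7 and Hoxb8, and the antisense transcripts Hoxb3os and Hoxb5os. They were taken by gene symbol from a table of 44349 genes, and no filter on low values was applied to them. The RNA came from LT-HSC, the long-term haematopoietic stem cells of the bone marrow, gated as cells without lineage markers that carry Sca-1 and c-Kit, lack CD34 and Flk2 and have low CD49b. The 18 libraries form 6 groups of 3. WT libraries are wild type with no further label. Titles of the Wnt5a libraries carry only the name of the signalling protein Wnt5a, and their column names give wild type. KO Ctrl libraries are the DERARE knockout control, and KO Wnt5a libraries are described as a Wnt5a rescue of the knockout. WT Reserve and KO Reserve libraries carry the word reserve and differ by genotype. The descriptions word both KO Ctrl and KO Reserve with "wild type" or "wt" beside the knockout, so sample titles set the genotype of these groups. The column names of the reserve libraries carry "fl" where the other 12 carry "ko" or "wt". The labels do not say what "fl" or reserve stands for, how the deletion was made, whether it was made in every tissue, how Wnt5a was given, how old the mice were, or whether the 3 libraries of a group came from separate animals. P-values therefore measure the spread between these libraries, which may be technical.

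DERARE is the name of a retinoic acid response element of the Hoxb cluster, a stretch of regulatory DNA bound by the nuclear retinoic acid receptors, which pair with RXR partners. Hox genes encode homeodomain transcription factors that set position along the body axis in the embryo, and they lie in clusters whose order on the chromosome matches the order of their expression. In blood, Hoxb4 is known for enlarging the stem cell pool when it is overexpressed, and Hoxb5 is known as a marker of long-term stem cells. Hoxb2 and Hoxb3 belong to the anterior paralogue groups, Hoxb6, Hoxb7 and Hoxb8 to the middle ones, and Hoxb8 is known to block myeloid maturation when it is forced on. The antisense transcripts are noncoding RNAs read from the strand opposite to the Hoxb genes. The knockout removes a regulatory element and not a gene, so no member serves as a check that the deletion is present. Whether the deleted segment holds any exon of a member is not given in the sources used here.

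On the GRCm38 assembly, in GENCODE release M21, the coding members lie on the plus strand of chromosome 11 in the order Hoxb8 (chr11:96281905-96285315), Hoxb7 (chr11:96286623-96290162), Hoxb6 (chr11:96292476-96301569), Hoxb5 (chr11:96303336-96306121), Hoxb4 (chr11:96318267-96321638), Hoxb3 (chr11:96323326-96347930) and Hoxb2 (chr11:96350525-96354012). Hoxb5os (chr11:96291024-96306910) and Hoxb3os (chr11:96343072-96354691) lie on the minus strand. Exons of Hoxb3os cover 4201 bases, of which 953 are also exon of Hoxb2 and 2250 are also exon of Hoxb3. Exons of Hoxb5os cover 696 bases, of which 100 are shared with Hoxb5 and 0 with Hoxb6. The library kit keeps no strand information, so fragments from the shared bases cannot be assigned to either partner. The RefSeq promoter table held 3 of the 9 members. Shown are the 250 bases before their annotated starts (GRCm38.p6, 5′ to 3′ on the strand of the gene), because Hoxb8 and Hoxb4 carry the letters searched for and because the RefSeq start of Hoxb3os lies inside Hoxb2, whereas the GENCODE M21 gene begins at the end coordinate given above, past the end of Hoxb2. The first runs from chr11:96281655-96281904 on the plus strand, with TTTATA and TTTATG matches on either strand in capitals.
Hoxb8: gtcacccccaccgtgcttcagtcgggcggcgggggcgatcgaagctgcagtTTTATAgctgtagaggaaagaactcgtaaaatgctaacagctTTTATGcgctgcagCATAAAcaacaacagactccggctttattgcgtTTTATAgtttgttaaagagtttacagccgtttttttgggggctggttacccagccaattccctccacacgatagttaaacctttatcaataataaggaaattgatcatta
The second is chr11:96318017-96318266 on the plus strand, with a match to the retinoid receptor half-site AGGTCA, read on the opposite strand as TGACCT, in capitals.
Hoxb4: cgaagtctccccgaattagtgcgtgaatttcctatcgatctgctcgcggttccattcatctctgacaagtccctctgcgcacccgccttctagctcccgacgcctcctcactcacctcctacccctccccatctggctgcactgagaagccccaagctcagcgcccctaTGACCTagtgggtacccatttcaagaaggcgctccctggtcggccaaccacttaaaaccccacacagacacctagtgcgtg
The third is chr11:96353395-96353644 on the minus strand, with the stop codon of Hoxb2, read on its opposite strand, in capitals.
Hoxb3os: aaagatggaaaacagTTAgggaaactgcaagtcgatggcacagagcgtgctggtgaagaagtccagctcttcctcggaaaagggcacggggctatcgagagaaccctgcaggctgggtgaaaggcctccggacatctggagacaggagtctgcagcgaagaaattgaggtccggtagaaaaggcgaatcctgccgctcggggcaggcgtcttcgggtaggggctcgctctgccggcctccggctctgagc
Of the Hoxb3os bases, 232 are coding sequence of Hoxb2 and all 250 lie in a Hoxb2 exon. Across 32851 promoters of the same length, AGGTCA occurred on either strand in 14.0%, TTTATA in 12.4% and TTTATG in 10.8%. In the Hoxb4 promoter the half-site began 81 bases before the start. The Hoxb8 promoter held TTTATA at 199 and 110 bases and TTTATG at 157 and 143 bases before the start. It also held CCAAT at 57 bases, a motif found in 33.8% of promoters. The direct repeat of AGGTCA with 5 spacer bases, which contains the half-site searched above and is a classical retinoic acid response arrangement, was in none of the 3 windows and in 3 of the 32851 promoters. TGATTNAT, a Hox-Pbx site, and the E-box CACGTG were in none of the 3 windows, and in 2.82% and 6.02% of promoters. These matches describe letters in a window and say nothing on binding.

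All values are FPKM, the fragments of a gene divided by transcript length and by library size. The unit does not correct for a different make-up of the RNA, so comparisons between libraries can depend on further scaling. Median-ratio scaling factors were 0.846 to 0.915 in KO Reserve and 1.001 to 1.058 in WT Reserve. Genes with 1 transcript showed values in whole multiples of 1 fragment, which gave an implied depth of 23300000 to 46600000 fragments per library. A value worth 3 fragments on the longest transcript of a member was taken as its detection floor, and like the intervals below it covers counting error only. Replicate libraries correlated at 0.932 to 0.968 over genes. The reserve libraries stood apart from the other 12. The 8 granulocyte markers summed to 4657 to 10381 FPKM in WT Reserve and 2455 to 3692 in KO Reserve, against 19.2 to 135 in the other groups. The 10 erythroid markers summed to 4288 to 7893 FPKM in the reserve libraries and 114 to 238 elsewhere, and no granulocyte or erythroid marker was at 0 in all libraries of a reserve group. The 6 B cell markers summed to 1550 to 2385 FPKM in the reserve libraries and 28.2 to 71.6 elsewhere, while the 6 megakaryocyte markers summed to 150 to 378 against 7550 to 29889. The 16 LT-HSC markers summed to 525 to 556 FPKM in WT and Wnt5a, 587 to 652 in KO Ctrl and KO Wnt5a, 359 to 496 in WT Reserve and 154 to 163 in KO Reserve. Of the sort markers, Kit (c-Kit) was at 11.6 to 33.6 FPKM in every library, and Ly6a (Sca-1) at 85.8 to 201 in all groups but KO Reserve, where it was at 20.1 to 25.3. With Cd34, Flt3 (Flk2) and Itga2 (CD49b), the 5 sort genes summed to 435 to 624 FPKM in the 12 libraries without the reserve label. The sums were 209 to 299 FPKM in WT Reserve and 63.8 to 67.1 in KO Reserve. Itga2 was at most 0.408 FPKM. In those 12 libraries a large part of the sum was thus RNA of Cd34 and Flt3, whose proteins the gate excludes. Fewer cells of a type and less RNA per cell cannot be told apart in such bulk libraries.

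Hoxb2 was the most abundant member, with a median of 3.24 FPKM over the 18 libraries and a range of 0.674 to 6.003. Hoxb5os followed at a median of 1.58 FPKM, then Hoxb5 at 0.673, Hoxb3os at 0.582, Hoxb7 at 0.332, Hoxb4 at 0.322 and Hoxb6 at 0.202. Hoxb8 had a median of 0.0495 FPKM and was at or under its floor of 0.0265 to 0.0531 in 7 of 18 libraries, 4 of them at 0. Hoxb3 had a median of 0.028 FPKM and was at or under its floor of 0.0216 to 0.0432 in 9 of 18 libraries. The order along the chromosome was not the order of the levels, since Hoxb3 at the anterior end was lower than its neighbours Hoxb2 and Hoxb4 in all 18 libraries. Of the 9 members, all entered the test of every gene with a value above 0 somewhere, and 3 (Hoxb2, Hoxb5os and Hoxb7) reached 1 FPKM in at least 3 libraries.

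**Figure D1:**
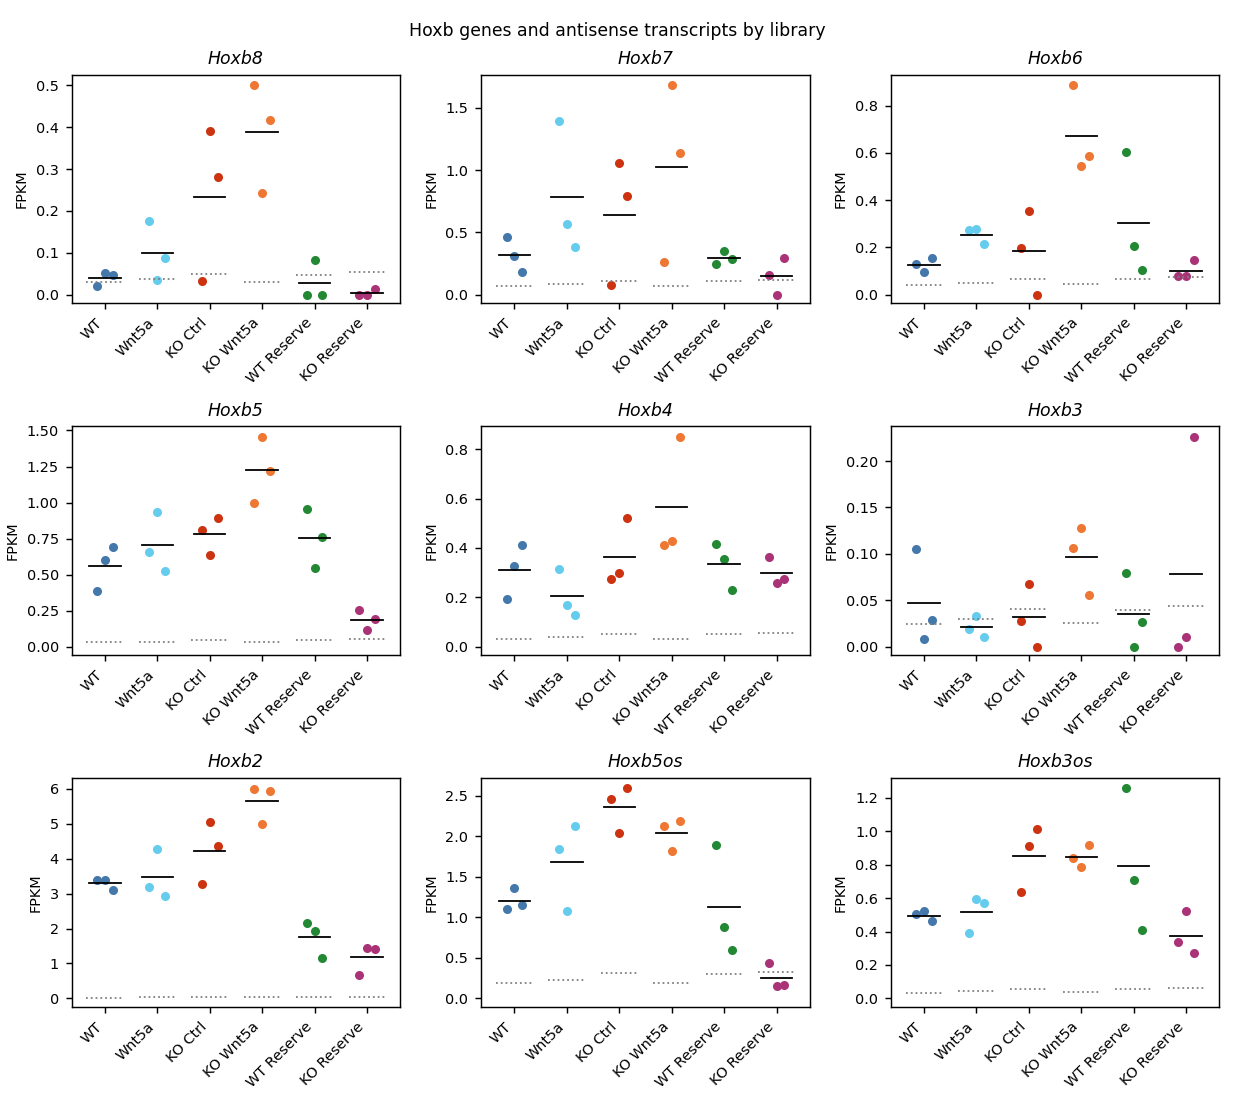
FPKM of each of the 9 members (vertical axes, linear) in the 18 libraries of 6 groups (horizontal axes). Points are libraries, black lines are group means, and dotted grey lines are the highest detection floor (3 fragments) among the libraries of the group. Hoxb5 in KO Reserve lies below every other library of the set, and Hoxb2 in the reserve groups lies below all other libraries.

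The first question was whether loss of DERARE goes with other Hoxb levels in libraries with no further label. Most members had higher means in KO Ctrl than in WT, but no member passed the test. In WT libraries Hoxb5os measured 1.10, 1.36 and 1.15 FPKM, and in KO Ctrl 2.46, 2.03 and 2.59. The groups did not overlap, and the difference on the log2(FPKM + 1) scale was 0.61 (SE 0.20, adjusted p = 0.219, limma). Hoxb3os measured 0.503, 0.523 and 0.461 FPKM in WT and 0.634, 0.914 and 1.013 in KO Ctrl, again without overlap (0.30, SE 0.15, adjusted p = 0.495). Hoxb2, the anterior gene whose exons share bases with Hoxb3os, measured 3.38, 3.40 and 3.10 FPKM in WT. In KO Ctrl it measured 3.27, 5.05 and 4.37, so that the first knockout library lay among the wild-type values. Hoxb8 was at 0.020, 0.052 and 0.047 FPKM in WT and at 0.033, 0.390 and 0.280 in KO Ctrl, and Hoxb7 at 0.462, 0.311 and 0.178 against 0.074, 1.06 and 0.795. Hoxb8 and Hoxb7 thus shared the same low knockout library, replicate 1, while Hoxb6 was listed at 0 in knockout replicate 3. In replicate 1 both were under their floors, which were 0.0494 FPKM for Hoxb8 and 0.111 for Hoxb7. That library had an implied depth of 25000000 fragments, against 42800000 and 46300000 in replicates 2 and 3. The part of depth in these low values was not tested. Without KO Ctrl replicate 1 the number of members whose groups did not overlap was 5 instead of 2. Without any other library of the pair it was 2 or 3. Groups separate more easily with fewer libraries. The share of all genes was not computed for these smaller sets, so nothing is concluded from the rise. Limma called 0 of 9 members, with 2 at an unadjusted p below 0.05, where 0.764% of the 30242 genes tested were called. Groups did not overlap, with the knockout higher, for 2 of 9 members and for 8.91% of all genes. The log2 differences were positive for 8 of 9 members (median 0.24), and the median over all genes tested was 0. Over the 14285 genes with at least 1 FPKM in 3 libraries it was 0.040. Marker genes of other cells also differed in this pair. B cell markers summed to 63.8 to 71.6 FPKM in KO Ctrl and 28.2 to 35.7 in WT, with 3 of 6 called higher. Granulocyte markers summed to 19.2 to 32.4 FPKM against 79.9 to 95.9, with 1 of 8 called lower. Most of the gap between these sums was Mpo, at 53.7 to 65.4 FPKM in WT and 0.01 to 0.273 in KO Ctrl. The median log2 difference of the 8 granulocyte markers was positive, at 0.25, so the list did not fall as a whole. Mast cell and basophil markers summed to 2.08 to 3.91 FPKM against 16.3 to 17.7, with 2 of 5 called lower. Of the LT-HSC markers 1 of 16 was called higher, and the part of these markers in the Hoxb values was not tested.

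With the Wnt5a label, the knockout libraries had the higher values for nearly the whole cluster. Hoxb2 measured 3.20, 4.27 and 2.93 FPKM in Wnt5a and 6.003, 4.999 and 5.93 in KO Wnt5a, a ratio of means of 1.63. Every knockout library lay above every wild-type library (0.58 on the log2 scale, SE 0.19, adjusted p = 0.224). Hoxb5, the stem cell marker, measured 0.657, 0.933 and 0.527 FPKM against 0.994, 1.46 and 1.22 in the knockout. These did not overlap either (0.38, SE 0.13, adjusted p = 0.249). Hoxb6 measured 0.272, 0.277 and 0.213 FPKM in Wnt5a and 0.887, 0.545 and 0.588 in KO Wnt5a, a ratio of 2.65 (log2 difference 0.41, SE 0.13, adjusted p = 0.229). For Hoxb8 the values were 0.177, 0.035 and 0.088 FPKM in Wnt5a and 0.501, 0.244 and 0.418 in KO Wnt5a. This member had the smallest adjusted p of the 9 (0.33, SE 0.09, adjusted p = 0.144). Hoxb4 measured 0.316, 0.167 and 0.126 FPKM in Wnt5a against 0.413, 0.430 and 0.852 (0.37, SE 0.12, adjusted p = 0.225). Hoxb3 (at most 0.033 FPKM in Wnt5a and at least 0.056 in KO Wnt5a) and Hoxb3os (0.390 to 0.593 against 0.785 to 0.917) completed the 7 members without overlap. Hoxb7 and Hoxb5os overlapped. Of all genes tested, 9.76% had higher, non-overlapping knockout values. Limma nevertheless called 0 of 9 members, with 5 at an unadjusted p below 0.05, where 0.880% of all genes were called. All 9 log2 differences were positive, with a median of 0.33 against 0 over all genes tested. Over the 14285 genes with at least 1 FPKM in 3 libraries the median was 0.053. The difference of Hoxb7 ran from -0.076 to 0.47 when 1 library was left out. The members share a cluster and their values come from the same 6 libraries, so they are not independent of each other. The LT-HSC marker sum was also higher in the knockout here, at 628 to 652 FPKM against 540 to 556, with 2 of its 16 genes called higher. Mast cell and basophil markers summed to 8.63 to 25.4 FPKM in the knockout against 71.1 to 158, with 3 of 5 called lower and 1 higher. Granulocyte markers were called lower for 2 of 8 and megakaryocyte markers for 2 of 6, with 0 higher in either list. The part of these markers in the Hoxb differences was not tested.

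Because both sets pointed the same way, the average of the 2 genotype differences was tested as well, a contrast chosen after the values were seen. Limma called 1 of 9 members, where 3.30% of all genes were called and 1.8% were called higher. This was Hoxb8, with a mean of the 2 differences of 0.28 (SE 0.07, adjusted p = 0.0328). The call was lost in 12 of 20 alternatives, including each omission of a WT library and the fit on the 12 libraries concerned (adjusted p up to 0.0871). The 6 knockout libraries overlapped the 6 wild-type ones for Hoxb8, since KO Ctrl replicate 1 was at 0.033 FPKM, under the Hoxb8 floor of 0.0494 there. For Hoxb3os they did not: the highest wild-type value was 0.593 FPKM and the lowest knockout value 0.634, a separation seen in 1.42% of genes, with a difference of 0.30 (SE 0.10, adjusted p = 0.165). No interaction of genotype with the Wnt5a label was called among the members (0 of 9, 0 at an unadjusted p below 0.05, against 0.0529% of all genes called).

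In the reserve libraries 2 members passed the test, both lower in the knockout, and 8 of 9 log2 differences were negative (7 after quantile normalization or median-ratio scaling). Hoxb5 measured 0.957, 0.544 and 0.760 FPKM in WT Reserve and 0.255, 0.112 and 0.192 in KO Reserve. All 3 knockout libraries lay below all 3 wild-type ones, and the mean was 4.04-fold lower (0.186 ± 0.072 against 0.754 ± 0.207, SD, n = 3). Hoxb5 fell by 0.56 on the log2(FPKM + 1) scale (SE 0.13, adjusted p = 0.00718, limma). Behind the knockout values stand about 9.56 to 15.3 fragments if all came from the longest transcript. If all came from the shortest transcript they would be fewer, with a lowest value of about 6.26 in KO Reserve replicate 2. Hoxb5os measured 1.89, 0.880 and 0.596 FPKM in WT Reserve and 0.439, 0.155 and 0.165 in KO Reserve. It fell by 0.72 (SE 0.20, adjusted p = 0.0201), but 2 of the 3 knockout libraries were at or under its floor and hold about 2.00 fragments each, so that no ratio is given. The call for Hoxb5os was lost without WT Reserve replicate 1, without KO Reserve replicate 2 or 3, and in a fit of the 6 reserve libraries alone, where adjusted p rose to 0.133. The call for Hoxb5 was lost in that fit (adjusted p = 0.0655) and in none that left out 1 library.

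The other members of the reserve set did not pass. Hoxb3os measured 1.26, 0.710 and 0.412 FPKM in WT Reserve and 0.335, 0.521 and 0.271 in KO Reserve (-0.36, SE 0.15, adjusted p = 0.114), and the groups overlapped through WT Reserve replicate 3. Hoxb2 measured 2.16, 1.94 and 1.17 FPKM against 0.674, 1.45 and 1.43 (-0.34, SE 0.19, adjusted p = 0.261). Hoxb4, the neighbour of Hoxb5, had overlapping values in both genotypes, 0.414, 0.357 and 0.231 FPKM against 0.365, 0.256 and 0.274. Its difference was -0.04 with an SE of 0.12. WT Reserve replicate 3 was the lowest of its group for Hoxb2, Hoxb4, Hoxb6, Hoxb3os and Hoxb5os. It also had the lowest LT-HSC marker sum of its group, 359 FPKM against 496 and 476. Without this library the number of members whose groups did not overlap was 5 instead of 2. Without any other library of the pair it was 2 to 4. The share of all genes was not computed for these smaller sets, in which groups separate more easily, so nothing is concluded from the rise. Limma called 2 of 9 members, both lower, where 20.0% of all genes were called and 13.8% were called lower, so the share of members called was near that of all genes. Groups did not overlap, with the knockout lower, for 2 of 9 members and 17% of genes. The median of the member differences was -0.23. Over the 14285 genes with at least 1 FPKM in 3 libraries the median difference was itself -0.17, and Hoxb5 and Hoxb5os remained called after quantile normalization (-0.41 and -0.57) and median-ratio scaling (-0.51 and -0.66). The LT-HSC markers moved in the same libraries: 13 of 16 were called lower in KO Reserve and 0 higher. Procr, the protein C receptor carried by stem cells, measured 15.6 to 21.1 FPKM in WT Reserve and 1.19 to 1.65 in KO Reserve, and Hlf, a stem cell transcription factor, 9.71 to 14.0 against 1.35 to 2.11. Erythroid markers were called higher for 6 of 10 and granulocyte markers lower for 3 of 8. Monocyte and macrophage markers were called lower for 4 of 6, and summed to 615 to 847 FPKM in WT Reserve and 102 to 153 in KO Reserve. Megakaryocyte markers were called lower for 3 of 6 and T and NK cell markers for 2 of 6. For B cell markers it was 1 of 6, and for mast cell and basophil markers 1 of 5, with 0 higher in any of these lists. The part of all these markers in the Hoxb differences was not tested.

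**Figure D2:**
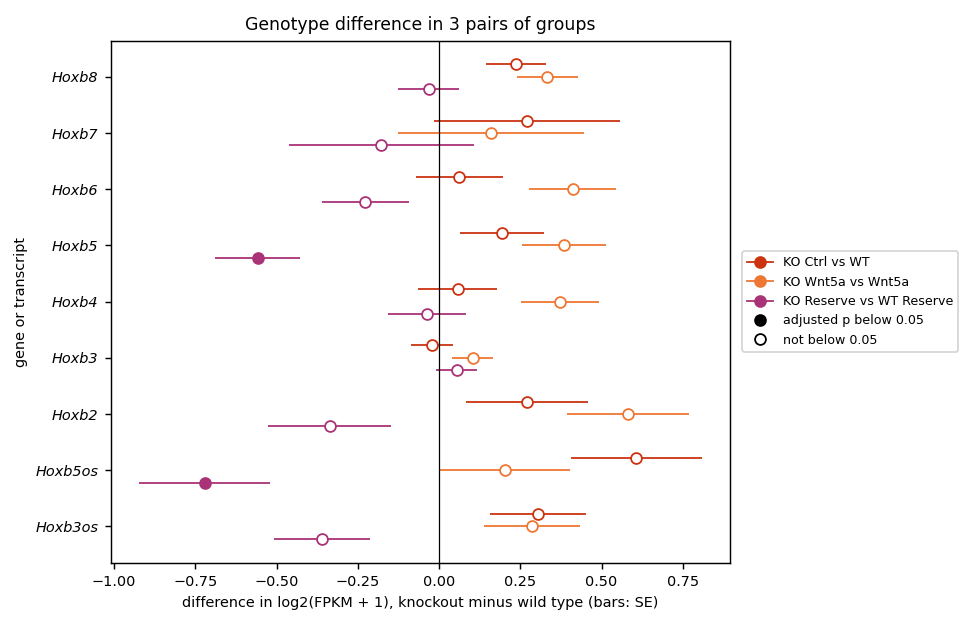
Difference in log2(FPKM + 1) between knockout and wild type (horizontal axis) for each member (vertical axis) in the plain, Wnt5a and reserve pairs of groups, with bars for 1 SE. Filled points have an adjusted p below 0.05: Hoxb5 (-0.56) and Hoxb5os (-0.72) in the reserve pair, while all 9 points of the Wnt5a pair are positive and open.

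Whether the genotype difference itself depended on the reserve label was tested as an interaction with the plain pair. The reserve label goes with "fl" in the column names, and the test cannot tell them apart. Limma called 2 of 9 members, where 12.8% of all genes were called and 9.25% were called in the same direction. For Hoxb5 the knockout difference was 0.75 lower in the reserve libraries than in the plain ones (SE 0.18, adjusted p = 0.0146). For Hoxb5os it was 1.33 lower (SE 0.28, adjusted p = 0.00655). Hoxb3os came next, at -0.66 (SE 0.21, adjusted p = 0.0528), followed by Hoxb2 at -0.61 (SE 0.27, adjusted p = 0.173). The sign was negative for 8 of 9 members (7 after quantile normalization) with a median of -0.45, beside a median of -0.22 over the genes with at least 1 FPKM. Both calls held under each of 20 alternatives for Hoxb5 and 21 for Hoxb5os.

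**Figure D3:**
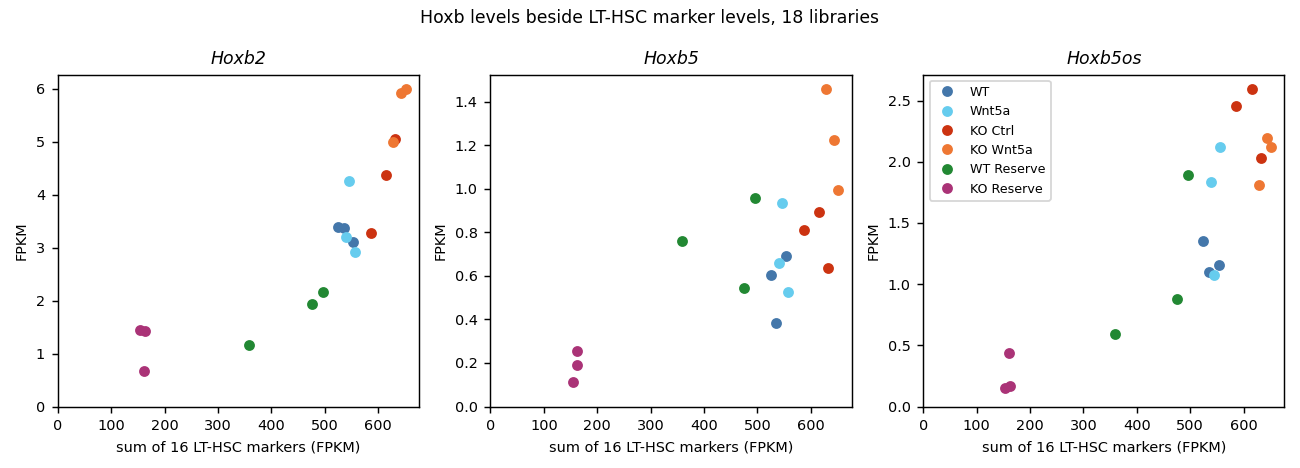
FPKM of Hoxb2, Hoxb5 and Hoxb5os (vertical axes) against the summed FPKM of 16 LT-HSC marker genes (horizontal axes) in each of the 18 libraries, coloured by group. The 3 KO Reserve libraries lie at sums of 154 to 163 with the lowest Hoxb5 and Hoxb5os values, and the KO Wnt5a libraries lie at 628 to 652 with the highest Hoxb2 values apart from 1 KO Ctrl library at 5.05.

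Comparing libraries with and without the reserve label within a genotype separated Hoxb2 in both genotypes. All reserve columns and no others carry "fl", so the label cannot be told apart from whatever "fl" stands for. In wild type its mean was 3.29 ± 0.16 FPKM (SD, n = 3) without the label and 1.75 ± 0.52 with it. The difference of -0.66 (SE 0.19, adjusted p = 0.0154) was called, with groups that did not overlap, and was lost without WT Reserve replicate 3 (adjusted p = 0.0735). Limma called only this 1 of 9 members, lower, where 30.3% of all genes were called and 13.4% were called lower. In the knockout, Hoxb2 fell by 1.27 (SE 0.19, adjusted p = 8.8e-05), from 4.23 ± 0.89 FPKM in KO Ctrl to 1.18 ± 0.44 in KO Reserve, a 3.57-fold lower mean. Hoxb5os fell by 1.43 (SE 0.20, adjusted p = 5.22e-05) and Hoxb5 fell by 0.59 (SE 0.13, adjusted p = 0.00252). Hoxb8 had values of 0, 0 and 0.013 FPKM in KO Reserve, all at or under its floor, against 0.033, 0.390 and 0.280 in KO Ctrl (-0.29, SE 0.09, adjusted p = 0.0285). Hoxb3os was also called (-0.43, SE 0.15, adjusted p = 0.0363). The calls of Hoxb8 and Hoxb3os were lost in 6 and 8 of 14 alternatives, up to adjusted p of 0.127 and 0.118, for Hoxb8 without any 1 KO Reserve library and without KO Ctrl replicate 2 or 3. In this comparison 5 of 9 members were called, all lower, where 34.1% of all genes were called and 19.5% were called lower, and groups did not overlap for 5 members and for 21.9% of genes. The 3 KO Ctrl and 3 KO Reserve libraries also enter the genotype comparisons and the interaction above, so these results share samples. Of the 16 LT-HSC markers 13 were called lower in KO Reserve than in KO Ctrl and 1 higher, whereas 9 were called higher in WT Reserve than in WT and 6 lower. Their part in the Hoxb differences was not tested.

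Beside the Wnt5a label alone, no member passed. In wild type, limma called 0 of 9 members, with 0 at an unadjusted p below 0.05, where 0.0298% of all genes were called. Hoxb6 was the 1 member without overlap, at 0.128, 0.096 and 0.154 FPKM in WT and 0.272, 0.277 and 0.213 in Wnt5a (log2 difference 0.15, SE 0.13), a pattern that 7.03% of all genes had. Its value in the knockout was 0.197, 0.356 and 0 FPKM in KO Ctrl and 0.887, 0.545 and 0.588 in KO Wnt5a (0.50, SE 0.13, adjusted p = 0.218). Hoxb5 measured 0.811, 0.637 and 0.894 FPKM in KO Ctrl and 0.994, 1.46 and 1.22 in KO Wnt5a (0.32, SE 0.13, adjusted p = 0.559). These 2 of 9 members did not overlap, against 6.02% of genes. Limma called 0 of 9, with 2 at an unadjusted p below 0.05, where 0.255% of genes were called.

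Ordering the 6 groups by mean put KO Wnt5a first for Hoxb2, Hoxb3, Hoxb4, Hoxb5, Hoxb6, Hoxb7 and Hoxb8, and KO Ctrl first for the 2 antisense transcripts. KO Reserve came last for 7 members, all but Hoxb3 and Hoxb4. Most neighbours in these orders overlapped. For Hoxb5 the order was KO Wnt5a (1.22 ± 0.23 FPKM, SD, n = 3), KO Ctrl (0.781 ± 0.131), WT Reserve (0.754 ± 0.207), Wnt5a (0.706 ± 0.207), WT (0.559 ± 0.157) and KO Reserve (0.186 ± 0.072). Its first and last groups were clear of their neighbours and the 4 in between overlapped in turn. For Hoxb2 the only gap lay between WT (3.29) and WT Reserve (1.75), and for Hoxb5os between WT Reserve (1.12 ± 0.68) and KO Reserve (0.253 ± 0.161). Hoxb3, Hoxb4, Hoxb6, Hoxb7, Hoxb8 and Hoxb3os had no gap anywhere in the order.

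Hoxb4 has a single annotated transcript of 2566 bases, so its fragments could be recovered from the FPKM. They came out within 0.121 of a whole number in every library. WT libraries held 19, 32 and 45 fragments, Wnt5a 27, 14 and 10, KO Ctrl 16, 30 and 57, and KO Wnt5a 41, 40 and 82. WT Reserve held 29, 22 and 14, and each KO Reserve library held 20. The 95% Poisson interval of a library with 20 fragments runs from 12.2 to 30.9, that of WT Reserve replicate 1 from 19.4 to 41.6 and that of replicate 3 from 7.65 to 23.5. These fragments are not scaled for the unequal depth of the libraries. The interval of KO Wnt5a replicate 3, from 65.2 to 102, lay above those of the other 2 libraries of its group (29.4 to 55.6 and 28.6 to 54.5), a spread larger than counting error. Summed over a group, Wnt5a held 51 fragments (38.0 to 67.1) and KO Wnt5a 163 (139 to 190). The intervals of these sums leave out the spread between libraries and the unequal depth, so they do not test a difference. Limma did not call Hoxb4 in this pair (adjusted p = 0.225).

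**Figure D4:**
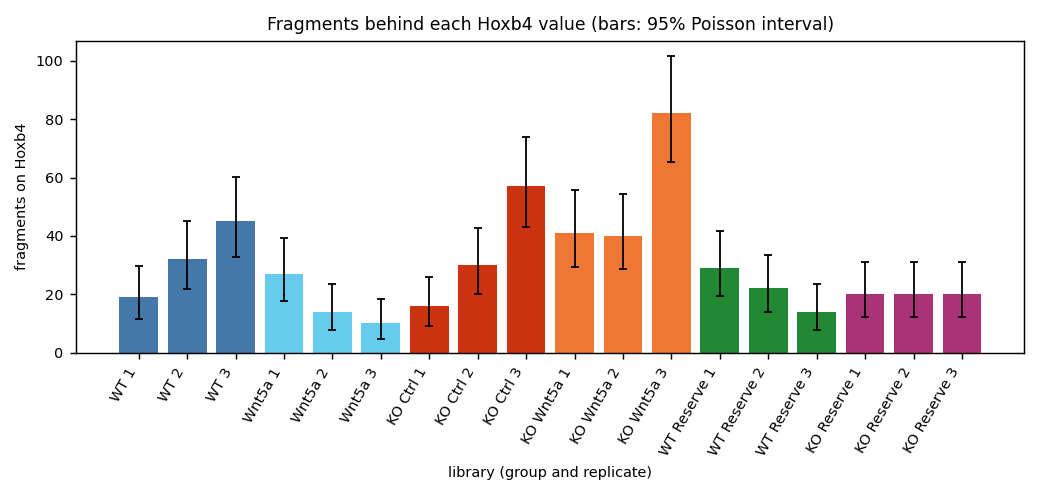
Fragments recovered for Hoxb4 (vertical axis, linear from 0) in each library, with 95% Poisson intervals that cover counting error only. Libraries hold 10 to 82 fragments, and KO Wnt5a replicate 3 stands above the other 17.

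Over the 18 libraries the 36 pairs of members had a median Pearson correlation of 0.52 in log2(FPKM + 1), from -0.14 to 0.78, and 34 of the 36 were positive. After the mean of each group was subtracted the median was 0.14, from -0.47 to 0.64. The points share library, depth and group differences, so these are descriptions. Among 13151 genes with a mean of at least 1 FPKM, those most like Hoxb2 over the 18 libraries were Cbx6 (0.979), D130020L05Rik (0.978), Lbhd2 (0.968), Sox13 (0.967) and Mtmr3 (0.965). After subtracting group means they were Spag6l (0.893), Hlf (0.876), Bcl2l2 (0.875), Fmnl2 (0.871) and Plxna4os1 (0.868). For Hoxb5os they were Eid2 (0.932), B4galt5 (0.924), Myl10 (0.922), Afdn (0.917) and Foxn3 (0.917), and after subtraction Ice1 (0.877), Rbks (0.868), Brf2 (0.845) and Man2a2 (0.832). No gene is named in both pairs of lists, and the highest of so many correlations are large by selection.

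Other rows of the cluster gave little. Hoxb9, the next gene on the posterior side, measured 0.139, 0.269 and 0.083 FPKM in WT and 0.331, 0.170 and 0.899 in KO Ctrl. It measured 0.161, 0.136 and 0.245 FPKM in Wnt5a and 0.196, 0.652 and 0.642 in KO Wnt5a, was at most 0.016 in WT Reserve, and measured 0, 0.147 and 0.031 in KO Reserve. Hoxb1 was listed at 0 in 17 of 18 libraries, and Hoxb13, Mir10a and Mir196a-1 in all 18.

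Genes outside the cluster were counted from lists for the same pathway. These counts stand beside the shares of all genes called, which were 0.764% in the plain pair, 0.880% in the Wnt5a pair, 3.30% in the average of both and 20.0% in the reserve pair (13.8% lower). Of the 11 Hoxa genes 10 were tested. Limma called 0 in the plain and the Wnt5a genotype pairs, with 3 and 1 at an unadjusted p below 0.05, and 2 were called higher in the average of both (Hoxa9, 0.62, SE 0.15, adjusted p = 0.0367, and Hoxa7, 0.53, SE 0.13, adjusted p = 0.0409). In the reserve pair 5 of 10 were called lower and 0 higher, with a median of -0.76. Hoxa9, the most abundant of them and a driver of stem cell self-renewal, fell by 2.08 (SE 0.21, adjusted p = 1.45e-05) from 26.2 ± 4.5 to 5.43 ± 1.10 FPKM (SD, n = 3). Of the 18 Hoxc and Hoxd genes 11 were tested, 0 had a mean of 1 FPKM and limma called 0 in each genotype pair, with 1, 0 and 1 at an unadjusted p below 0.05 in the plain, Wnt5a and reserve pairs. Among the 9 Hox cofactors of the Meis, Pbx and Pknox families, 3 were called lower in the reserve pair, with a median of -0.07. Among them, Meis1 fell by 1.92 (SE 0.10, adjusted p = 1.07e-07) and Meis3 fell by 1.93 (SE 0.24, adjusted p = 6.54e-05). Limma called 0 of the 9 in the plain and Wnt5a pairs, with 2 and 1 at an unadjusted p below 0.05.

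Among the 27 genes of retinoic acid synthesis, transport, breakdown and receptors, 2 were called higher and 8 lower in the reserve pair, with a median of -0.14. Rxrg, a partner of the retinoic acid receptors, fell by 2.06 (SE 0.27, adjusted p = 0.000105). In the Wnt5a pair 1 was called, lower: Dhrs3, which reduces retinaldehyde back to retinol, fell by 1.60 (SE 0.34, adjusted p = 0.0435). In the plain pair limma called 0 of 27, with 6 at an unadjusted p below 0.05. Of 21 chromatin regulators of Hox genes, from the Polycomb and Trithorax groups and their partners, 1 was called higher in the plain pair. This was Phc1, a Polycomb subunit, which rose by 0.75 (SE 0.14, adjusted p = 0.0202), from 3.79 ± 0.17 to 7.11 ± 0.95 FPKM. In the reserve pair 1 was called higher and 4 lower, with a median of 0. Of 15 genes that flank the cluster 14 were tested. In the reserve pair 2 were called higher and 4 lower, with a median of -0.01: Skap1, the first coding gene past the cluster on the anterior side, fell by 2.08 (SE 0.19, adjusted p = 8.10e-06), and Atp5g1, on the posterior side, rose by 0.68 (SE 0.08, adjusted p = 5.34e-05). In the plain and Wnt5a pairs 0 of the 14 flanking genes were called, with 2 and 1 at an unadjusted p below 0.05.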

How the data were processed

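RNA from sorted mouse LT-HSC was measured in 18 libraries, for which the labels give the SMARTer ultra low input chemistry with Nextera. Reads were handled with CASAVA 1.8.2, TopHat2 2.0.10 and Cufflinks on mm10, per the submitters' processing notes; annotation release and strand setting are not given in the sources used here. The authors deposited FPKM per gene in 1 table whose header does not name the unit, which was inferred from Cufflinks and checked on the values.

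Values were analysed as log2(FPKM + 1), a scale that understates changes of low genes. Limma 3.58.1 (R 4.3.3, trend and robust moderation) estimated a separate mean for each of the 6 groups from the 18 libraries together, for the 30242 genes with finite values and a value above 0 in at least 1 library, and tested on simulated data. P-values are limma's, adjusted by Benjamini-Hochberg over all genes of a comparison, and called below 0.05. Another 16 genes with missing values were left out, and 0 columns. Summaries used Python 3.11.15, numpy 2.4.6, pandas 2.3.3 and matplotlib 3.10.9.

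Depth was read from 12587 single-transcript genes, taking transcript length less 205 bases; 94.6% to 96.1% of values up to 20 fragments came out whole within 0.1. Named genes were the members, other rows of the cluster, the 5 genes most correlated with Hoxb2 and with Hoxb5os (an unnamed model was left out), and up to 4 genes of smallest p per list. Members and lists were chosen with earlier results of these data known. Equal replicate numbers were checked for pairing, and same-numbered libraries of different groups were no more alike in median than others. Whether they share an animal or a preparation cannot be told from this. Alternatives were scaling, pseudocount, filters, moderation, weights, a replicate block, fits on fewer libraries and leaving out each library.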

Additional observations from a re-analysis of the deposited data

Results flagged for a closer look

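The knockout difference of Hoxb5 differed between the reserve and the plain libraries by -0.75 on the log2(FPKM + 1) scale, by limma's test of the interaction. The difference was -0.56 (SE 0.13) in the reserve pair and 0.19 (SE 0.13) in the plain pair. For Hoxb5os the same test gave -1.33, from -0.72 (SE 0.20) and 0.61 (SE 0.20), with 2 KO Reserve libraries at or under the floor. Among all genes 12.8% were called in this interaction.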

How the results depend on the processing

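The log2 differences of the 9 members in 10 comparisons, 90 in all, kept direction and call in 1405 cases under the settings tried, lost the call in 32, gained it in 9 and changed sign in 51. None of the 29 with an unadjusted p below 0.05 changed sign, so the sign changes are of differences that were not called. Library weights moved the difference of Hoxb3 from 0.054 to -0.00023 (KO Reserve against WT Reserve), Hoxb3os 0.019 to -0.00597 (Wnt5a against WT) and Hoxb3os 0.00031 to -0.018 (KO Wnt5a against KO Ctrl). Quantile normalization moved the difference of Hoxb4 from -0.038 to 0.036 (KO Reserve against WT Reserve), Hoxb2 0.046 to -0.0078 and Hoxb3os 0.019 to -0.00053 (Wnt5a against WT), Hoxb4 0.027 to -0.15, Hoxb5 0.17 to -0.11 and Hoxb3os 0.23 to -0.035 (WT Reserve against WT), Hoxb4 -0.094 to 0.023 (the interaction with reserve) and Hoxb3os -0.018 to 0.011 (the interaction with Wnt5a). Median-ratio scaling moved the difference of Hoxb4 from -0.038 to 0.018 (KO Reserve against WT Reserve) and Hoxb3os 0.00031 to -0.016 (KO Wnt5a against KO Ctrl). Leaving out 1 library gave both signs for 23 differences. In KO Ctrl against WT it did so for Hoxb3 (-0.049 to 0.018), Hoxb4 (-0.024 to 0.11) and Hoxb6 (-0.041 to 0.18). In KO Reserve against WT Reserve it did so for Hoxb3 (-0.042 to 0.11), Hoxb4 (-0.094 to 0.0056) and Hoxb8 (-0.052 to 0.0062). In KO Wnt5a against Wnt5a it did so for Hoxb7 (-0.076 to 0.47). In Wnt5a against WT it did so for Hoxb2 (-0.079 to 0.13), Hoxb3 (-0.063 to 0.0031) and Hoxb3os (-0.018 to 0.081). In KO Wnt5a against KO Ctrl it did so for Hoxb3os (-0.088 to 0.063). In WT Reserve against WT it did so for Hoxb3 (-0.047 to 0.023), Hoxb4 (-0.039 to 0.084), Hoxb7 (-0.096 to 0.0598), Hoxb8 (-0.056 to 0.0022) and Hoxb5os (-0.34 to 0.084). In KO Reserve against KO Ctrl it did so for Hoxb3 (-0.037 to 0.11), Hoxb4 (-0.11 to 0.014) and Hoxb6 (-0.21 to 0.0085). In the interaction with reserve it did so for Hoxb3 (-0.0201 to 0.13). In the interaction with Wnt5a it did so for Hoxb7 (-0.39 to 0.20), Hoxb8 (-0.027 to 0.19) and Hoxb3os (-0.11 to 0.044).

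Hoxb5 and Hoxb5os kept their interaction call with the reserve label under every setting run, and Hoxb2, Hoxb5 and Hoxb5os kept theirs in KO Reserve against KO Ctrl. Adjusted p for the Hoxb5 interaction ranged from 0.00548 to 0.0493. Keeping genes with 1 FPKM in 3 libraries removes 6 of the 9 members, so members called were 1 (KO Reserve against WT Reserve), 2 (KO Reserve against KO Ctrl), 1 (interaction with reserve) and 0 (genotype average). Fitting only the libraries of a comparison gave 0, 3 and 0 members called for the first, second and last of these. The genotype average also gave 0 members with a pseudocount of 0.1 and with the replicate block, and 2 with library weights. Leaving out 1 library gave 1 to 3 members for KO Reserve against WT Reserve, 3 to 5 for KO Reserve against KO Ctrl, 2 to 4 for the interaction and 0 to 1 for the genotype average. The cause was not tested.

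Calls over all genes moved by over 1.5 times as follows. With the 1 FPKM filter they were 378 for KO Ctrl against WT (231 without it), 461 for KO Wnt5a against Wnt5a (266), 146 for KO Wnt5a against KO Ctrl (77), 10 for the Wnt5a interaction (16) and 1553 for the genotype average (999). With values above 0 in 9 libraries they were 364, 402, 159 and 8 for the first 4 of these, and 4 for Wnt5a against WT (9). Library weights gave 459, 829, 155 (Wnt5a against WT) and 1903 (genotype average). Only the libraries compared gave 19, 28, 16 (KO Wnt5a against KO Ctrl) and 2459 (KO Reserve against WT Reserve, 6062 in all libraries). The 12 libraries without the reserve label, a fit chosen after the data were seen, gave 29 for KO Wnt5a against KO Ctrl and 22 for Wnt5a against WT. Quantile normalization gave 16 for Wnt5a against WT. For the Wnt5a interaction, median-ratio scaling gave 10 and limma without trend and robust moderation gave 8. Leaving out 1 library gave 100 to 303, 103 to 265, 22 to 37, 56 to 134, 14 to 32 and 534 to 1244 for KO Ctrl against WT, KO Wnt5a against Wnt5a, Wnt5a against WT, KO Wnt5a against KO Ctrl, the Wnt5a interaction and the genotype average.

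Of 45 same-numbered pairs of libraries in different groups 0 correlated above 0.1 (lowest -0.0917), so the numbers are shared in name only. With the replicate block the calls over all genes were 196 for KO Ctrl against WT, 223 for KO Wnt5a against Wnt5a, 5914 for KO Reserve against WT Reserve and 8 for the Wnt5a interaction, and the call of Hoxb3os in KO Reserve against KO Ctrl was lost. Depth limits Hoxb3 and Hoxb8 most, with 9 and 7 of 18 libraries at or under their floors.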
